A study of Homo sapiens with 6 samples.

Results

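The EGR family and other immediate-early genes were followed here as 10 genes of the 35474 listed in the deposited count table. They are the transcription factors EGR1, EGR2, EGR3 and EGR4, their co-repressors NAB1 and NAB2, the serum response factor SRF, and the immediate-early genes IER2, IER3 and NR4A1. The 10 were picked by symbol with their levels in these libraries already known, so the contrast between the groups is given for them as a description, without a test. RNA was measured in A549, an established human lung adenocarcinoma cell line, 48 h after siRNA transfection. The siBAP18 group held 3 cultures given siRNA against BAP18, a chromatin reader protein that works with histone-modifying and remodeling complexes, and the siCtrl group held 3 cultures given a non-specific siRNA. The sources used here do not state which of the study's BAP18 siRNAs was used, and there was no untransfected or rescued culture, so an effect of the siRNA on other transcripts and an effect of BAP18 loss cannot be told apart.

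Immediate-early genes are switched on within minutes of a signal such as serum, a growth factor or stress, without new protein synthesis. In the best-known route, the ERK cascade phosphorylates ternary complex factors of the ETS family, which sit with SRF on CArG boxes, and CREB acts through cyclic AMP response elements (CRE). EGR proteins are zinc finger factors that bind a GC-rich site, and NAB1 and NAB2 bind EGR1, EGR2 and EGR3 and restrain them. The mRNAs of this class are usually short-lived, so their level at a late time point is normally close to that of resting cells.

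The libraries held from 42094524 to 56548620 counts, and 20776 genes passed edgeR's filter on low counts. BAP18 itself, listed as C17orf49, had 743, 751 and 705 counts in siCtrl and 120, 137 and 108 in siBAP18. It shares 44.3% of its exon bases with RNASEK-C17orf49 on the same strand, which had 2132, 1942 and 1941 counts in siCtrl and 1931, 1754 and 1577 in siBAP18 (log2 fold change -0.24). It also shares 55.8% with MIR497HG on the opposite strand (log2 fold change -2.57), so the reads of these genes cannot be told apart in the shared bases. All 10 epithelial markers fixed for A549 were counted, with a summed level of 34140 to 36135 CPM (counts relative to the TMM-scaled size of the library) in siCtrl and 24291 to 27909 in siBAP18. Of 10 markers of blood, endothelial and stromal cells, 7 were listed, with a summed level of 13.6 to 15.2 CPM in siCtrl and 10.8 to 12.0 in siBAP18. PTPRC, CD3E and DCN were not among the listed genes. Mitochondrial genes took 6.86% to 7.43% of the counts in siCtrl and 5.27% to 6.14% in siBAP18. Both marker sums and the mitochondrial share were lower in siBAP18 without overlap, and their part in the results was not tested. The epithelial markers did not all move one way. KRT7 had 127851, 103266 and 118207 counts in siCtrl and 177405, 165023 and 144064 in siBAP18, while ALDH1A1 had 498606, 425720 and 435676 in siCtrl and 283243, 320033 and 194703 in siBAP18. In bulk RNA, more cells expressing a gene and more RNA per cell cannot be told apart.

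The sequences before the start sites of EGR1, EGR2 and SRF are shown first, because these 3 members carry CArG boxes. RefSeq promoter windows on GRCh38.p14, running from 250 bases before to 50 bases after a start site, were matched for 8 of the 10 members (14 windows). EGR3 and IER3 were not matched. Each line gives the 200 bases before the start, 5′ to 3′ on the strand of the gene, with capitals marking CArG boxes, the core of the CRE, which is TGACGT on either strand, and the EGR site GCGNGGGCG. The EGR1 stretch is chr5:138465279-138465478 on the + strand, that of EGR2 is chr10:62816367-62816566 on the − strand, and that of SRF is chr6:43171069-43171268 on the + strand.
EGR1: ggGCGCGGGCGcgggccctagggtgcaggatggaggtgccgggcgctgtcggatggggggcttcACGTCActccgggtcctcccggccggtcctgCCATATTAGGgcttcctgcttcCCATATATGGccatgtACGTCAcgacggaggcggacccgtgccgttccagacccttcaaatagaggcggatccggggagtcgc
EGR2: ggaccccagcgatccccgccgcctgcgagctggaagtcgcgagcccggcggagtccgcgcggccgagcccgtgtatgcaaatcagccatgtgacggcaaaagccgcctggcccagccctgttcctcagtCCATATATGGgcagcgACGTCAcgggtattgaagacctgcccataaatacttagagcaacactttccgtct
SRF: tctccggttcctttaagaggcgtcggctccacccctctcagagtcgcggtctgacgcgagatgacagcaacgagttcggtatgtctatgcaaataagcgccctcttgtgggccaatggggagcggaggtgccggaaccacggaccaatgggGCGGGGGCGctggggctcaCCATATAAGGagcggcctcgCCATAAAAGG

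EGR1 held 2 CArG boxes, CCATATTAGG beginning 105 bases before the start (position -105) and CCATATATGG at -83. The word CNGGAAG, a core of ETS factor sites, lay between them at -94 on the opposite strand. EGR1 also held CRE cores at -136 and -67 and an EGR site at -198. EGR2 held the same box as the second of EGR1, CCATATATGG at -71, followed by a CRE core at -55. SRF held CCATATAAGG at -30, CCATAAAAGG at -10 and an EGR site at -49. A CArG box was present in 1.29% of the 35116 RefSeq windows, and 11 windows (0.0313%) held 2.

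The members without a CArG box differed in the other words. EGR4 had 2 CRE cores, at -178 and -110, and no CArG box. NAB2 had an EGR site at -62. Its surroundings and those of the second EGR4 core are shown as 30 bases each, from chr12:57089041-57089070 on the + strand and chr2:73293641-73293670 on the − strand.
NAB2: ctgtgcgtcctGCGGGGGCGgaggcgcgga
EGR4: gtttgggcatttACGTCAcggcggcagggc

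NAB1 held EGR sites at 2 of its 3 start sites, whose windows overlap in part, and a CRE core at the remaining one. The EGR2 window at its second start site also held an EGR site, 9 bases into the transcript. IER2 and NR4A1 carried the ETS word alone among these 4, and no CArG box, CRE core or EGR site. Across all windows, the CRE core was found in 7.98%, the EGR site in 9.43% and the ETS word in 33.6%. The AP-1 word TGANTCA, present in 7.71% of windows, was in none of the members' windows. The TATA word TATANA was in windows of 2 members and in 19.0% of all windows. Both strands were searched, the words were chosen with these sequences already seen, and a word match is not evidence of binding.

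**Figure D1:**
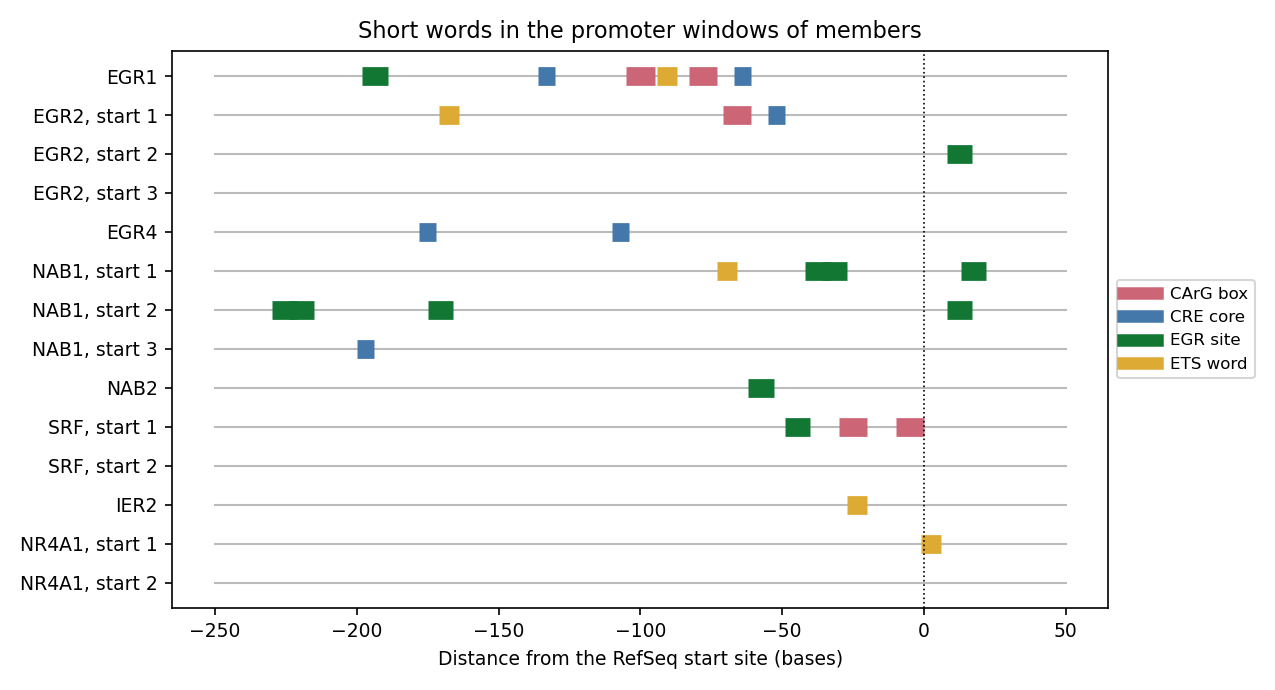
Positions of 4 short words in the 14 RefSeq windows of 8 members, with distance from the start site in bases on the horizontal axis and 1 line per start site. CArG boxes are drawn in EGR1 (2), EGR2 (1) and SRF (2), and the EGR1 window is the single window holding all 4 words.

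EGR1, the founding member of the EGR family, went from a few reads to over 1000 per library. It lies at chr5:138465490-138469315 on the + strand, with 2 exons. The siCtrl libraries had 18, 16 and 14 counts and the siBAP18 libraries had 1580, 1490 and 1025. Every siBAP18 library was far above every siCtrl library. The level was 0.327 ± 0.0243 CPM (SD, n = 3) in siCtrl and 26.6 ± 2.10 CPM (SD, n = 3) in siBAP18, an 81.3-fold ratio of means. The siCtrl mean rests on 18, 16 and 14 counts, so its SD understates the counting error and the ratio is approximate. The log2 fold change from edgeR was 6.33 (standard error 0.139), and it was the 27th highest of the 20776 genes tested. Removing any one library kept it between 6.27 and 6.37.

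EGR2, known for its roles in myelination and lymphocytes, was at the edge of detection in siCtrl and was counted in every siBAP18 library. It lies at chr10:62811996-62919900 on the − strand. The siCtrl libraries had 2, 2 and 0 counts, and the siBAP18 libraries had 164, 188 and 70. The groups did not overlap, and siBAP18 replicate 3 was the lowest of its group, at 1.73 CPM against 3.01 and 3.22. All siCtrl libraries were at or under 3 counts, the limit that a count of 0 allows. Against that limit, averaged over the siCtrl libraries as 0.0617 CPM, the siBAP18 mean of 2.65 ± 0.809 CPM (SD, n = 3) was at least 43.0-fold higher. Of all counts from 1 to 4, 79.4% were even, as would be seen if both reads of a pair were counted. The limit would then be 6 counts and the bound 21.5-fold, a setting added after seeing the data.

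EGR3 and EGR4 stayed at the limit of detection in both groups. EGR3 had 0, 0 and 2 counts in siCtrl and 0, 2 and 0 in siBAP18. EGR4, at chr2:73290929-73293705 on the − strand, had 0, 0 and 2 counts in siCtrl and 2, 2 and 0 in siBAP18. Neither passed the filter, and a difference was not detectable at this depth. No fold change is given for them.

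Summed over the 4 EGR genes on the length-scaled RPKM values (counts per kilobase of listed exon, relative to the library total), the family total went from 0.120 ± 0.00291 RPKM (SD, n = 3) in siCtrl to 9.23 ± 0.980 RPKM (SD, n = 3) in siBAP18. The siCtrl total rests mostly on 18, 16 and 14 counts of EGR1, so its SD understates the counting error. EGR1 was the main EGR transcript in both groups. Its share was 86.6 ± 7.41% in siCtrl, where a few reads set the value, and 92.1 ± 2.23% in siBAP18. EGR2 made up 7.75 ± 2.11% of the siBAP18 total, from 5.49% to 9.67%.

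The co-repressors NAB1 and NAB2 moved in opposite directions. NAB1, at chr2:190646746-190692766 on the + strand, had 1740, 1757 and 1773 counts in siCtrl and 1363, 1429 and 931 in siBAP18. All siBAP18 libraries were lower, at 24.2 ± 1.07 CPM (SD, n = 3) against 36.1 ± 2.97 (SD, n = 3), a log2 fold change of -0.58 (standard error 0.0759). NAB2, itself an EGR1-inducible gene, lies at chr12:57088894-57095476 on the + strand. It had 1412, 1358 and 1259 counts in siCtrl and 1929, 2067 and 1589 in siBAP18. Here all siBAP18 libraries were higher, at 36.7 ± 2.18 CPM (SD, n = 3) against 27.6 ± 1.43 (SD, n = 3), a log2 fold change of 0.41 (standard error 0.0730).

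Together the NAB transcripts kept nearly the same level. NAB1 and NAB2 summed to 16.5 ± 1.12 RPKM (SD, n = 3) in siCtrl and 17.1 ± 0.154 (SD, n = 3) in siBAP18, a difference within the spread of the siCtrl libraries. The share of NAB2 in that sum was 55.4 ± 1.67% in siCtrl and 71.1 ± 2.08% in siBAP18. The ratio of NAB2 to NAB1 went from 1.24 ± 0.0831 to 2.47 ± 0.260. The NAB to EGR ratio of these RNA levels went from 137 ± 6.16 to 1.87 ± 0.202. In siCtrl its EGR part rests mostly on 18, 16 and 14 counts of EGR1, so the SD of 6.16 understates the counting error.

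**Figure D2:**
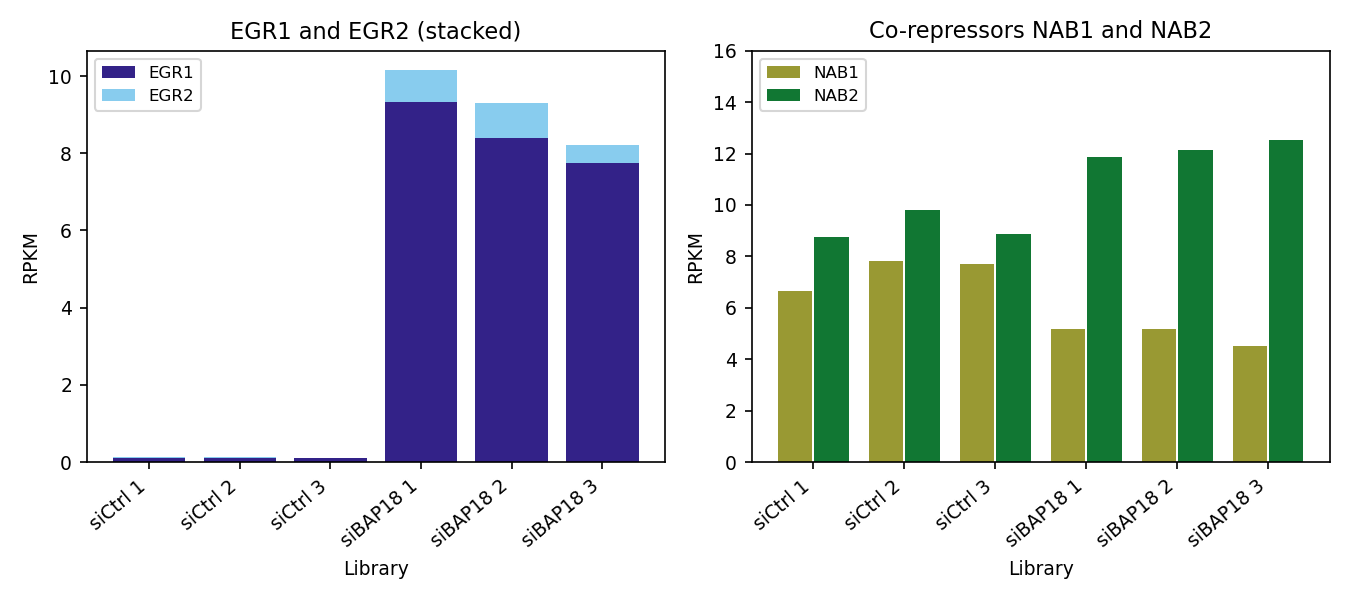
RPKM of EGR1 and EGR2 stacked (left) and of NAB1 and NAB2 side by side (right) in each of the 6 libraries, with no error bars because each bar is 1 library. The EGR total is from 8.21 to 10.2 RPKM in siBAP18 and at most 0.123 in siCtrl, and NAB2 exceeds NAB1 in every library.

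SRF, the factor that binds CArG boxes, was moderately higher after siBAP18. It lies at chr6:43171299-43181507 on the + strand and had 1292, 1145 and 1092 counts in siCtrl and 1767, 1826 and 1326 in siBAP18. All siBAP18 libraries were above all siCtrl libraries on the CPM scale, with 32.1 ± 0.774 (SD, n = 3) against 24.1 ± 0.653 (SD, n = 3). The log2 fold change was 0.42 (standard error 0.0703).

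IER2, a growth-factor-inducible nuclear protein gene, showed the largest difference among the members that were well expressed in siCtrl. It lies at chr19:13150415-13154908 on the + strand. Read counts were 1090, 1019 and 969 in siCtrl and 3183, 3279 and 2350 in siBAP18. The groups were tight and far apart, at 21.0 ± 0.759 CPM (SD, n = 3) and 57.5 ± 1.23 CPM (SD, n = 3), with a log2 fold change of 1.45 (standard error 0.0699).

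IER3, which encodes a stress-inducible regulator of cell survival, lies at chr6:30743199-30744554 on the − strand in a single listed exon. Its counts were 2543, 2328 and 2345 in siCtrl and 3816, 3759 and 3249 in siBAP18. The siBAP18 libraries were all higher but more scattered, at 70.1, 64.4 and 80.1 CPM against 47.8, 50.1 and 50.2. The log2 fold change was 0.53 (standard error 0.0755), and it ranged from 0.45 to 0.61 with each library left out.

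NR4A1, an orphan nuclear receptor and a classical early response gene, was lower. It lies at chr12:52022832-52059507 on the + strand and had 802, 567 and 660 counts in siCtrl and 441, 449 and 387 in siBAP18. No siBAP18 library reached the lowest siCtrl library, with 8.45 ± 0.975 CPM (SD, n = 3) against 13.8 ± 1.47 (SD, n = 3). The log2 fold change was -0.72 (standard error 0.101). Its relatives NR4A2 and NR4A3, named after their values had been seen, differed from each other. NR4A2 fell from 18.4 ± 2.02 to 14.5 ± 1.25 CPM (SD, n = 3; log2 fold change -0.34, adjusted p = 0.00257 by edgeR). NR4A3 rose from 1.61 ± 0.204 to 3.31 ± 0.117 CPM (SD, n = 3; log2 fold change 1.05, adjusted p = 6.47e-06 by edgeR).

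**Figure D3:**
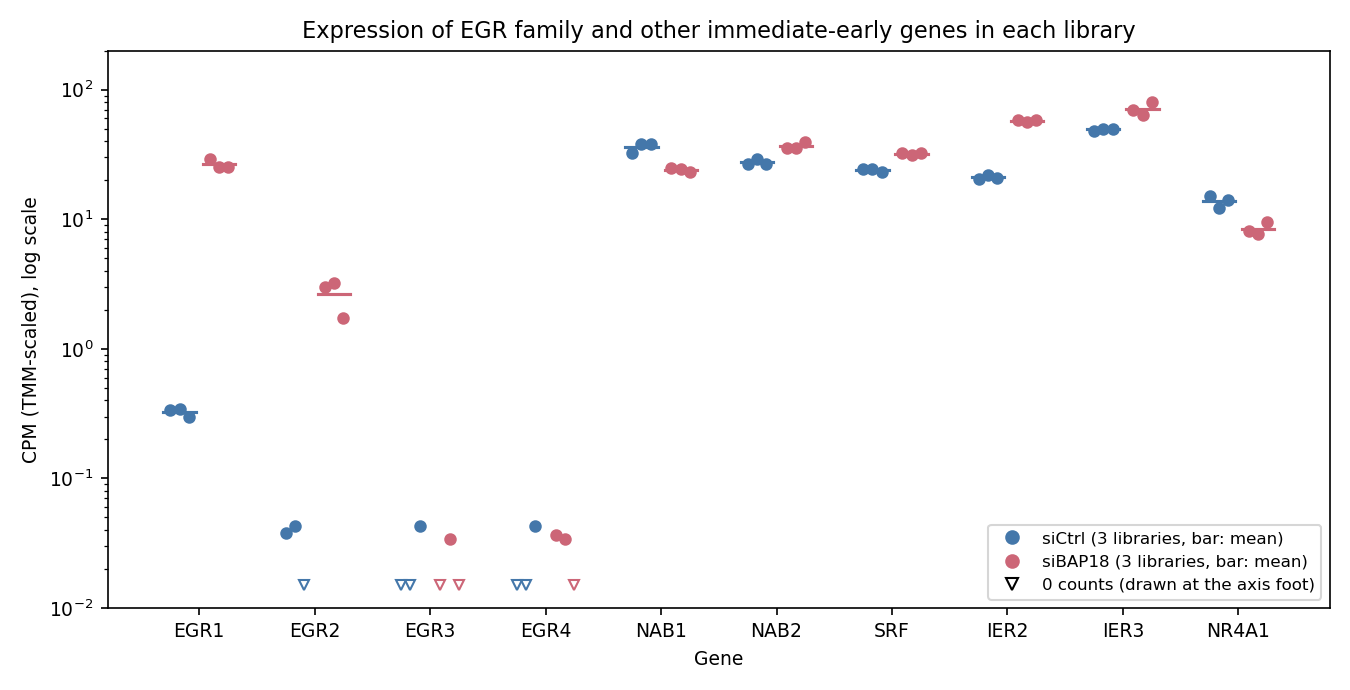
CPM of the 10 members in each library on a log axis, with 3 siCtrl and 3 siBAP18 points per gene, a bar at the mean where no library was at 0, and open triangles for libraries with 0 counts. EGR1 and EGR2 are separated by far more than the spread of the libraries, EGR3 and EGR4 lie at 0 to 2 counts, and NAB1 and NR4A1 are the members with siBAP18 below siCtrl.

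In all, 3 of the 10 members (EGR1, EGR2 and IER2) were over a log2 fold change of 1 and 0 were under -1. Among all genes tested, 4.72% were called higher and 3.74% called lower, a call needing both an adjusted p under 0.05 and a log2 fold change beyond 1 in size. Of the 8 members that passed the filter, 6 were higher and 2 lower without overlap between the libraries. Over all genes tested, 56.6% did not overlap in one direction or the other, 24.5% were higher and 25.1% lower at an adjusted p under 0.05, and the median log2 fold change was 0.00102. The members were selected on this contrast, so nothing is read from these counts.

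The order of levels changed between the groups. On the RPKM scale, siCtrl cells ran from IER3 (36.3 ± 1.22), NAB2 (9.14 ± 0.575), NAB1 (7.38 ± 0.649), IER2 (6.84 ± 0.321), SRF (5.72 ± 0.201) and NR4A1 (1.89 ± 0.183) to EGR1 (0.104 ± 0.00837; SD, n = 3 each). NAB1 was above IER2 in each siCtrl library, but by as little as 6.64 against 6.61 in replicate 1, and their ranges over the libraries overlapped. In siBAP18 the order was IER3 (52.7 ± 3.98), IER2 (18.7 ± 0.520), NAB2 (12.2 ± 0.338), EGR1 (8.49 ± 0.787), SRF (7.66 ± 0.148), NAB1 (4.95 ± 0.371), NR4A1 (1.16 ± 0.0916) and EGR2 (0.725 ± 0.241; SD, n = 3 each). EGR1 was above SRF in each siBAP18 library, by 9.32 against 7.79, 8.40 against 7.68 and 7.76 against 7.50, while their ranges over the libraries overlapped. EGR1 had moved from below every member but the other EGR genes to the level of SRF. RPKM divides by the length of all listed exons, which for NR4A1 is 7295 bases over 11 merged exons, so a gene with unused exons is understated.

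Several members share exon bases with a gene listed on the opposite strand. The labels describe a strand-specific library, but whether the counting used strand is not given in the sources used here, so reads of such pairs cannot be told apart. CTC-250I14.6 lies wholly within IER2 exons, over 946 bases or 30.8% of the exon bases of IER2, and its counts were 0.708 to 0.753 of those of IER2 in every library. Its log2 fold change of 1.46 was close to the 1.45 of IER2. XXbac-BPG252P9.10 shares 26.5% of the exon bases of IER3, with counts 0.464 to 0.499 of those of IER3 and a log2 fold change of 0.57. RP11-1100L3.8 shares 10.3% of the exon bases of NR4A1 and AC006460.2 shares 3.81% of those of NAB1, with log2 fold changes of -0.89 and -0.59. STAT6, which shares 69 bases with NAB2, moved the other way from NAB2, by -0.23. EGR1, EGR2, EGR4 and SRF shared no exon bases with another listed gene.

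**Figure D4:**
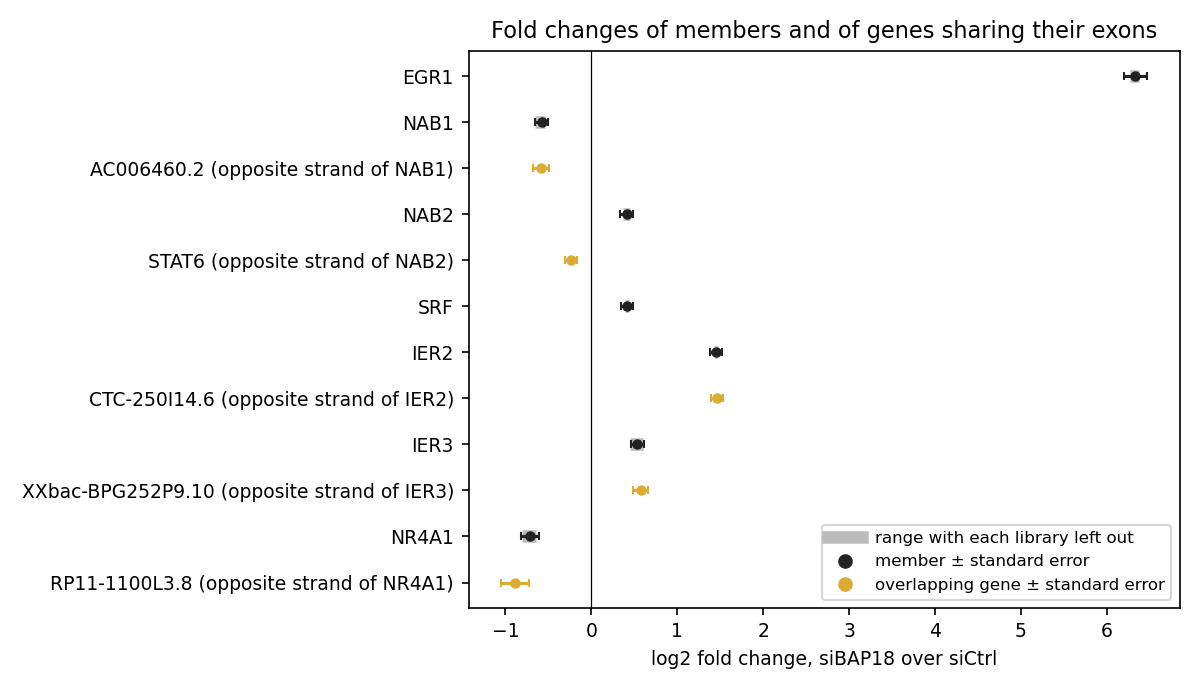
Log2 fold change of siBAP18 over siCtrl for 7 members (black) and for genes that share exon bases with them on the opposite strand (yellow), with bars of 1 standard error and grey bands for the range with each library left out. EGR1 stands at 6.33, IER2 and its partner coincide near 1.45, and NAB2 and STAT6 lie on opposite sides of 0. EGR2 is left out because its siCtrl libraries were at the detection limit.

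Among genes whose mean log2 CPM reached 1, those with a pattern over the 6 libraries nearest to that of EGR1 were BHLHE41, VGF and DHRS2. EGR2 fell below that level and was not ranked. Likeness was the root mean square difference of log2 CPM, each gene taken relative to its siCtrl mean, among 14221 genes. The distance was 0.280 for BHLHE41, a circadian repressor gene that had 22, 22 and 30 counts in siCtrl and 2637, 2821 and 1521 in siBAP18. It was 0.959 for VGF, a neuropeptide precursor gene, and 1.13 for DHRS2, a dehydrogenase gene. Their log2 fold changes were 6.46, 4.96 and 4.74. In siBAP18 replicate 3, BHLHE41 had its lowest siBAP18 level, at 37.5 CPM, and VGF its highest, at 50.8 CPM. EGR1 itself was nearly level in siBAP18 replicates 2 and 3, at 25.5 and 25.3 CPM.

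Beyond the members, 6 lists of genes around the immediate-early response were counted. They were compiled with earlier results of these libraries known. Of 66 other immediate-early genes, 64 were tested, and 20 were called higher (31.25%) and 0 lower, against 4.72% and 3.74% of all genes tested. At an adjusted p under 0.05 without a fold threshold, 49 were higher (76.6%) and 8 lower (12.5%), and the list median was 0.74. Over all genes tested, 24.5% were higher and 25.1% lower at that adjusted p. ATF3, a stress-induced transcription factor, rose from 7.07 ± 0.499 to 137 ± 9.23 CPM (SD, n = 3; log2 fold change 4.27, adjusted p = 2.22e-22 by edgeR). All adjusted p here are Benjamini-Hochberg values of the edgeR quasi-likelihood fit over all genes tested. PPP1R15A, the GADD34 subunit that redirects a phosphatase to eIF2α, rose from 219 ± 9.99 to 4011 ± 235 CPM (SD, n = 3; log2 fold change 4.20, adjusted p = 1.24e-22 by edgeR). VGF (log2 fold change 4.96) and FOSL1, an AP-1 subunit (3.70), followed by adjusted p. These genes had the smallest adjusted p of the list, not the largest fold changes. ARC, named after its values had been seen, had the highest log2 fold change of the list, 5.55. It had 4, 4 and 0 counts in siCtrl and 166, 171 and 80 in siBAP18.

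Not every gene of this class was higher. MYC was at 56.4 ± 0.808 CPM in siCtrl and 55.3 ± 3.79 in siBAP18 (SD, n = 3; log2 fold change -0.03, adjusted p = 0.771 by edgeR). Among the 8 genes lower at an adjusted p under 0.05 by edgeR, ZFP36L2 had the lowest log2 fold change, -0.52. Among AP-1 genes besides FOSL1, FOSB (log2 fold change 4.73), JUN (3.39) and FOS (1.25) were called higher. JUND (0.89), JUNB (0.78) and FOSL2 (0.68) were higher at that adjusted p but under the fold threshold. IER5 and IER5L, relatives of IER2, had log2 fold changes of 0.73 and 0.21 at adjusted p = 1.15e-09 and 0.0252 by edgeR. The genes of this paragraph other than FOSL1 were named after their values had been seen.

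Of 29 genes of the ERK cascade and SRF cofactors, 0 were called at a log2 threshold of 1, with 8 higher (27.6%) and 10 lower (34.5%) at an adjusted p under 0.05 and a median of -0.02. Over all genes tested, 4.72% and 3.74% were called and 24.5% and 25.1% were higher and lower at that adjusted p, so these shares lay near the background. Leaving out siCtrl replicate 1 gave 1 call. The SRF cofactors MRTFA and MRTFB, listed as MKL1 and MKL2 and named after their values had been seen, moved apart. MKL1 differed by 0.53 on the log2 scale (adjusted p = 1.26e-06 by edgeR) and MKL2 by -0.47 (adjusted p = 6.03e-05 by edgeR). These are RNA levels, and kinase activity was not measured.

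Cytoskeletal genes known as targets of SRF with MRTF were 32, of which 5 were called higher (15.6%) and 0 lower. At an adjusted p under 0.05, 20 were higher (62.5%) and 4 lower (12.5%), with a median of 0.39. Of all genes tested, 4.72% were called higher and 3.74% lower, and 24.5% were higher and 25.1% lower at that adjusted p. ANKRD1, a muscle ankyrin repeat gene also induced through YAP, rose from 5.16 ± 0.250 to 90.4 ± 8.89 CPM (SD, n = 3; log2 fold change 4.13, adjusted p = 9.05e-22 by edgeR). ACTA2, the smooth muscle actin gene, rose from 11.7 ± 0.972 to 43.3 ± 3.76 CPM (SD, n = 3; log2 fold change 1.89, adjusted p = 2.22e-15 by edgeR). FILIP1L (2.35) and FHL2 (1.06) were also called higher. The fifth was the calponin gene CNN1, which had only 0, 2 and 2 counts in siCtrl and 18, 22 and 26 in siBAP18. With limma on log2(RPKM + 1) or log2(RPKM + 0.1), 2 genes of this list were called.

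Of 31 genes known as EGR1 targets, 29 were tested, and 7 were called higher (24.1%) and 1 lower (3.45%), against 4.72% and 3.74% of all genes tested. At an adjusted p under 0.05, 15 were higher (51.7%) and 6 lower (20.7%), and the list median was 0.27. Over all genes tested, 24.5% were higher and 25.1% lower at that adjusted p, so the lower shares lay near the background. CDKN1A, a cell cycle inhibitor gene, rose from 39.0 ± 0.882 to 130.5 ± 11.2 CPM (SD, n = 3; log2 fold change 1.74, adjusted p = 7.30e-16 by edgeR). The growth arrest gene GADD45A (log2 fold change 1.62) and the stress cytokine gene GDF15 (1.47) were also called higher, and these 3 are known targets of p53 too. TNFSF10, the gene of the death ligand TRAIL, fell from 2.63 ± 0.0595 to 1.04 ± 0.0730 CPM (SD, n = 3; log2 fold change -1.34, adjusted p = 1.03e-06 by edgeR). With limma on log2(RPKM + 1), 4 genes of this list were called and TNFSF10 was not among them.

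The 2 remaining lists held no called gene, where 4.72% of all genes were called higher and 3.74% lower. Of 23 partner proteins of NAB and EGR, 8 were higher (34.8%) and 6 lower (26.1%) at an adjusted p under 0.05, with a median of 0.06, again near the 24.5% and 25.1% of all genes. Of 25 factors of AU-rich element mRNA decay, which shortens the life of many immediate-early mRNAs, 3 were higher (12%) and 10 lower (40%), with a median of -0.09. RNA half-lives were not measured.

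**Figure D5:**
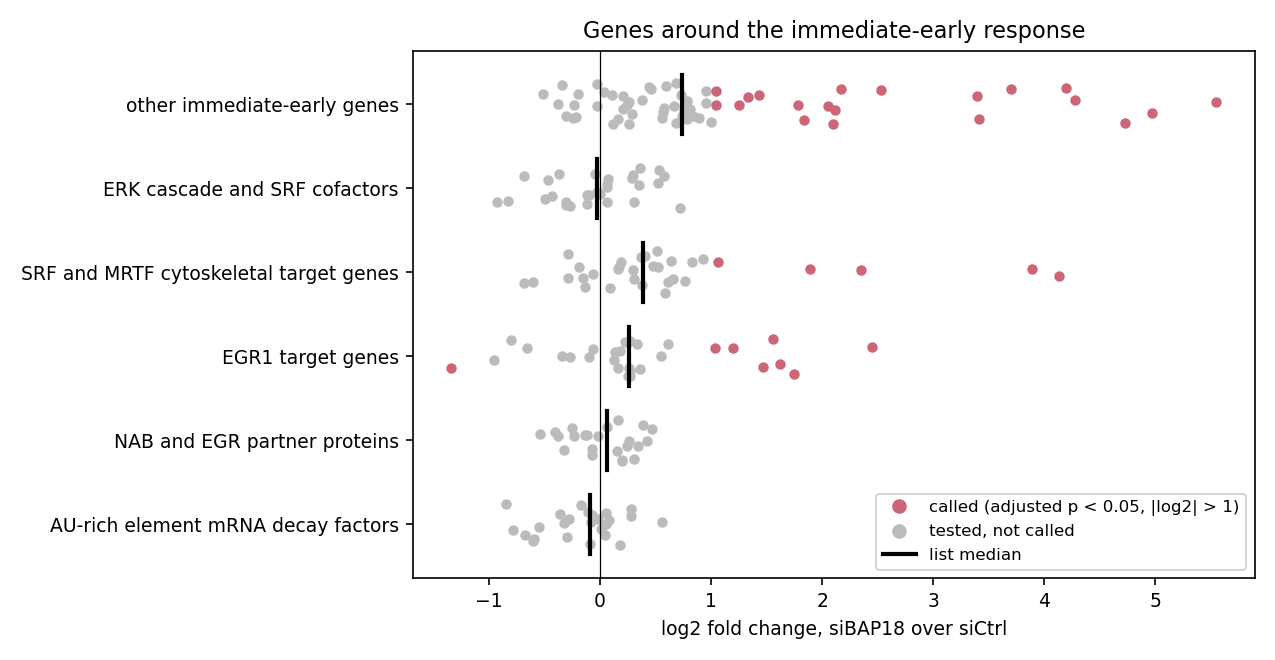
Log2 fold change of siBAP18 over siCtrl for every tested gene of the 6 lists, with called genes in red, other tested genes in grey and the list median as a black bar. The other immediate-early genes have 20 called genes and a median of 0.74, while the ERK cascade, NAB and EGR partners and mRNA decay lists have no called gene.

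Sites for the guide strands of the study's siRNAs were looked for in the members' 3′ UTRs, using guide bases 2 to 8 and GENCODE 29. No member held a site for any of the 3 BAP18 guides, which were found in 14.1%, 11.2% and 6.86% of the 13627 genes searched. The control guide had 1 site in NAB1 and 1 in IER3, against 3.02% of genes. Only the longest listed 3′ UTR of each gene and only the guide strands were searched. Coding sequence, the other siRNA strands and indirect effects were not covered, so an effect of the siRNA on other transcripts was not tested.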

How the data were processed

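Poly(A) RNA of 3 siCtrl and 3 siBAP18 A549 cultures was sequenced. The authors deposited whole-number counts for 35474 genes and RPKM values, which equal the counts per kilobase of listed length relative to the library total. The labels name the builds hg38 and GRCm38, and all 10 members lie on the same strand and positions as in GENCODE 29. The aligner, the counter and the use of strand are not given in the sources used here. Whether both reads of a pair were counted is not given either, and 79.4% of the counts from 1 to 4 were even. The members and gene lists were chosen with earlier results of these data known.

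The test used edgeR 4.0.16 in R 4.3.3 (filterByExpr, TMM, quasi-likelihood test, Benjamini-Hochberg adjustment). A standard error is the fitted log2 difference over the root of F. Limits of detection are 3 counts (6 if both reads were counted) and cover counting error only. On counts simulated for 20776 genes, 200 of 200 genes changed 4-fold and 0 others were called. Every gene was given the same dispersion, and changed genes had a mean over 1 CPM before the change. Levels such as those of EGR1 and EGR2 in siCtrl were therefore not covered. Named genes were the members, C17orf49, up to 4 called genes in each direction per list with the smallest adjusted p and no overlap, and the 3 genes nearest to EGR1 whose mean log2 CPM reached 1 (pseudocount 0.01). A gene that this rule names is not reported here. Alternatives were other scalings and count filters, the DESeq2 1.42.0 Wald test, limma 3.58.1 on log2 RPKM, a replicate block and each library left out. The members, selected on this contrast, were not tested. Sequences are from RefSeq.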

Additional observations from a re-analysis of the deposited data

How the results depend on the processing

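Other scalings, filters and tests, a replicate block and each library left out reversed the direction of no single-gene log2 fold change that was scored. Counts of genes, word counts and the EGR family totals and share could only be scored the same or moved, so they cannot show a reversal. Other results, such as the NAB sum and ratio, the overlapping genes and list genes named after their values had been seen, were not scored. Of the alternative values, 529 were scored the same, 39 moved and 6 were weaker. Values of single genes had to stay on the same side of their threshold, or within the replicate spread for members and neighbours of EGR1. VGF was scored by both rules. Counts of genes only had to stay within a fixed ratio of the main count. With at least 10 counts in every library, 1195 genes were called in place of 1758, which was scored the same. So were 2 members past a log2 fold change of 1 in place of 3, because that filter removed EGR2, with 2, 2 and 0 counts in siCtrl. Limma on log2 RPKM also gave 2 members at each setting. EGR2 was then removed by the filter or, on log2(RPKM + 1) without a filter, had a log2 fold change of 0.77, which was scored as moved. The 1758 genes called in all (981 higher, 777 lower) became 348 with limma on log2(RPKM + 1), 909 on log2(RPKM + 0.1) and 345 on log2(RPKM + 1) without a filter. The higher calls were then 215, 475 and 212 and the lower calls 133, 434 and 133, and with at least 10 counts in every library 605 were higher. With limma on log2(RPKM + 1), with and without a filter, 13 other immediate-early genes, 2 SRF and MRTF targets and 4 EGR1 targets were called, and on log2(RPKM + 0.1) 2 SRF and MRTF targets. A pseudocount compresses changes of low genes by construction, and EGR1 had log2 fold changes of 3.10 and 5.39 with pseudocounts of 1 and 0.1. With each library left out, the calls ranged from 1714 to 1934, and those of the ERK cascade and SRF cofactors from 0 to 1. Counted only before the start site, the TATA word was in 1 member.

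Samples with the same replicate number had residual correlations of 0.0712, 0.213 and 0.0972, all positive. Samples with different numbers were not compared in this way, so these values cannot decide whether the numbers mark pairs. The titles do not state that they do, so pairing entered only as an alternative. A replicate block called 968 genes higher and 773 lower. At these depths EGR3, EGR4 and, in siCtrl, EGR2 were at or under 3 counts, so their levels there are limits. With a limit of 6 counts, chosen after seeing the data, the EGR2 bound was 21.5-fold.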
